A study of Mus musculus with 8 samples.

Results

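The regenerating islet-derived (Reg) genes encode small secreted proteins with a C-type lectin fold. The 7 mouse genes Reg1, Reg2, Reg3a, Reg3b, Reg3d, Reg3g and Reg4 were taken by symbol from the deposited table, 7 of 21626 genes with a probe set, and each had 1 probe set, which stood for the gene. The family and the contrast between tumour and normal samples were chosen with these differences already in view, so the differences of the 7 genes are given as a description, without p-values. The samples were 4 gastric adenocarcinomas (replicates 1 to 4), which arose without induction in mice carrying a transgene and were frozen fresh, and 4 samples of normal gastric mucosa (replicates 1 to 4). The labels name no transgene, promoter, strain, sex, age or treatment, and leave unsaid the genotype behind the normal samples and whether the 8 samples were taken from separate animals. The spread between samples may therefore be partly technical. Total RNA was hybridised to Affymetrix arrays, and values are on the log2 scale after robust multi-array averaging (RMA).

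In the intestine, Reg3g and Reg3b are released onto the epithelial surface, where they bind bacteria and limit their contact with the tissue. Their transcription there is raised by interleukin-22 acting through STAT3 and by Toll-like receptor signals through MyD88. Reg1 was first described in regenerating pancreatic islets, and in the rat stomach it is made by enterochromaffin-like and chief cells and acts as a mitogen. Reg2, Reg3a and Reg3d are best known from pancreas and intestine, and Reg4 from intestinal endocrine and secretory cells and, in humans, from gastrointestinal tumours. The glycosyltransferase EXTL3 has been proposed as a receptor for Reg proteins.

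Of the 7 members, 6 lie side by side in a cluster on chromosome 6 that spans 98.0 kb in the deposited table, from position 78320879 to 78418868, with 0 other genes of that table inside it. No source used here names the build of the deposited positions. The order there is Reg3b, Reg3d, Reg3a, Reg2, Reg1 and Reg3g, and Reg4 lies apart on chromosome 3. To show what neighbouring genes with different levels look like upstream, the 250 bases before the annotated start are printed for the 3 members that were much higher in the tumours (Reg3g, Reg3b and Reg1), for Reg2, which was high in 1 tumour, and for Reg3d, which was at background on all 8 arrays although it lies next to Reg3b. Sequences are from RefSeq, build GRCm38.p6, which matched all 7 members, and are read along the strand of the gene. Capitals mark the motifs TATAAA (the core promoter element bound by the TATA-binding protein), TTCNNNGAA (a palindrome of the kind STAT factors bind) and CACCTG (an E-box), searched on both strands, and in these windows none overlaps another.
Reg3g (chr6:78468875-78469124, minus strand): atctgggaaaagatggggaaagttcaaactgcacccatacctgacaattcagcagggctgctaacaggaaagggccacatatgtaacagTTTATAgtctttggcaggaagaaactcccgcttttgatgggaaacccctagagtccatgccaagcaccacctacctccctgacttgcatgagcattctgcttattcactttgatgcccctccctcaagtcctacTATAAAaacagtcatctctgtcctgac
Reg3b (chr6:78370635-78370884, plus strand): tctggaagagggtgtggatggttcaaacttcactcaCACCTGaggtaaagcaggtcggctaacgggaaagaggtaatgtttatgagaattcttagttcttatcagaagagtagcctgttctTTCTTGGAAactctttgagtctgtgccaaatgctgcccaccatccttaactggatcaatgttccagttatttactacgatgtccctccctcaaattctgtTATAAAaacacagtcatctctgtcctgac
Reg1 (chr6:78425733-78425982, plus strand): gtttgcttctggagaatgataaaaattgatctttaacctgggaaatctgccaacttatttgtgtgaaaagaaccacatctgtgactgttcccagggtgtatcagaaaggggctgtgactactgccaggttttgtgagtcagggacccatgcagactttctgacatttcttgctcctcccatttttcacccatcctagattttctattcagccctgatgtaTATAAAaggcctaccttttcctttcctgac
Reg2 (chr6:78404905-78405154, plus strand): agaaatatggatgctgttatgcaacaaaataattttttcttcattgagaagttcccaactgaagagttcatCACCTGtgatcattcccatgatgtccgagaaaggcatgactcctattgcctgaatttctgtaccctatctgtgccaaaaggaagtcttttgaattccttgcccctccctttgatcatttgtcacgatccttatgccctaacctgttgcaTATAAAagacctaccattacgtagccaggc
Reg3d (chr6:78378866-78379115, minus strand): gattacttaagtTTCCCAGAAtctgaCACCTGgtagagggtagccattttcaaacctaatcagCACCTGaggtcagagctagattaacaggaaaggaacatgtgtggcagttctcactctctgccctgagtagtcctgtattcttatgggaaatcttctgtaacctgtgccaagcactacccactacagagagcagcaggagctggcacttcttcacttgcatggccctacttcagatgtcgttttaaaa

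The upstream windows of Reg3b and Reg3g were the most alike of the 21 pairs among the 7 members, with 68.4% of aligned columns identical, against 44.9% to 56.9% for the other 20 pairs. Reg1 and Reg2 came next, at 56.9%. Windows of unrelated genes were not aligned, so these identities have no baseline and do not by themselves show shared sequence. A TATAAA lay 27 bases before the start of Reg3g, 29 before that of Reg3b, and 30 before those of Reg1 and Reg2. Reg3g held another on the opposite strand, 161 bases before its start. These letters were not in the windows of Reg3a, Reg3d or Reg4. The motif was present, at any position and on either strand, in 12.4% of 32851 RefSeq windows of the same length. Its share at 27 to 30 bases before the start was not counted. TTCNNNGAA was in the windows of Reg3b (129 bases before the start) and Reg3d (238 bases before it), and in 7.02% of all windows. CACCTG was in those of Reg2, Reg3a, Reg3b, Reg3d and Reg4, and in 17.2% of all windows. The palindrome was thus in the windows of Reg3b and Reg3d and not in that of Reg3g. Whether any of these motifs bears on the levels of the genes was not tested.

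Across the series the arrays were evenly scaled, with medians of 8.1 to 8.2 over gene probe sets and highest values of 14.4 to 14.5. The median background control probe lay at 6.0 to 6.2 on the tumour arrays and at 6.2 to 6.4 on the normal ones. Background probes vary widely, with a 90th percentile of 9.86 to 10.4, so this median is only a rough floor. The gap between exon and intron control probes spanned 3.9 to 4.5 on tumour arrays and 3.6 to 4.0 on normal ones. Xist, expressed from the inactive X chromosome, averaged 6.40 ± 0.183 over the tumours and 12.3 ± 0.483 over the normal samples (SD, n = 4 each), and the Y-linked Eif2s3y was 5.03 higher in adenocarcinoma, the pattern of male tumours and female normal samples. Sex, array quality and tissue therefore cannot be told apart in any difference below. Of 12 markers of pit cells and gastric glands, 10 fell and 0 rose, led by the chitinase Chia (-6.03 ± 0.356, SE) and the proton pump subunit Atp4b (-5.88 ± 0.194; limma adjusted p of 5.37e-06 and 2.17e-07). The normal samples thus carried the markers of their labelled tissue, with Atp4b at 13.6 or 13.7 on each array. In bulk tissue, a change in the number of cells of a type and a change in RNA per cell cannot be told apart.

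The family split into 3 genes that were far higher in the adenocarcinomas (Reg3g, Reg3b and Reg1) and 4 that lay at or near background in most samples (Reg2, Reg3a, Reg3d and Reg4). Relative to normal mucosa, Reg3g was 66.3-fold, Reg3b 55.7-fold and Reg1 21.1-fold higher. Among 21626 genes, Reg3g and Reg3b had the largest and next largest differences upward and Reg1 ranked 24. In these 3 members, called in limma at an adjusted p under 0.05, the groups did not overlap. The same fit called 18.2% of all genes higher in adenocarcinoma and 23.6% lower, while 15.8% of all genes were higher with no overlap and 18.5% lower with none. No member was called lower. Because the members were chosen on this contrast, nothing is read from these counts. The median difference over all genes was -0.10. Over the 7 members it was 1.23, which is the value of Reg2 and rests on adenocarcinoma replicate 1 (0.30 without it). It therefore does not show a rise of the whole family.

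**Figure D1:**
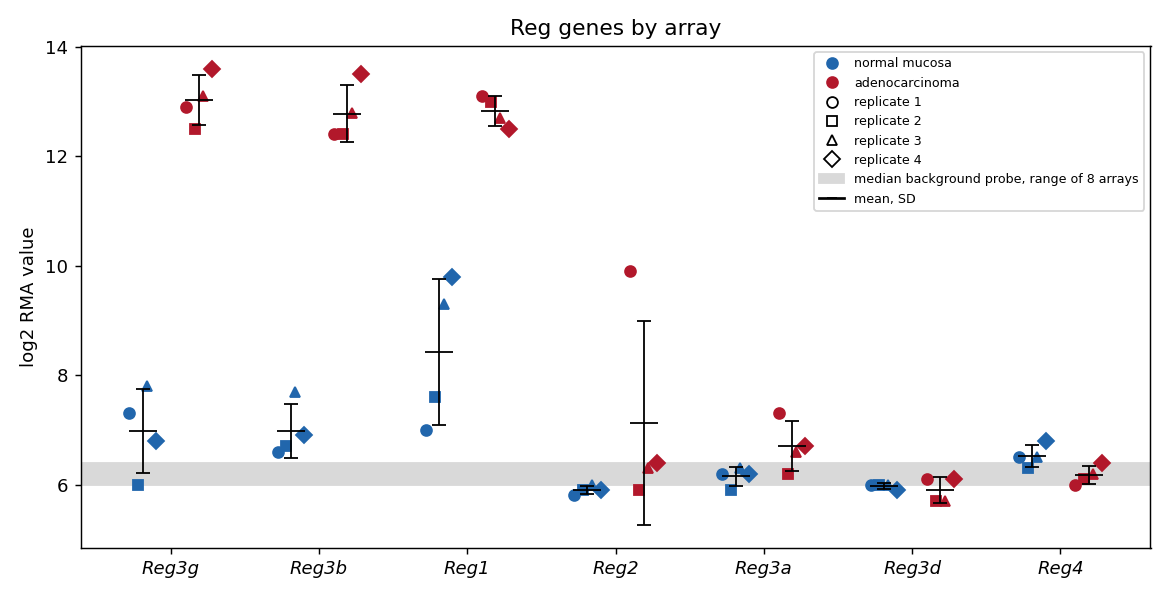
Log2 RMA values of the 7 Reg genes on each array (vertical axis), with normal mucosa in blue and adenocarcinoma in red, replicates 1 to 4 as circle, square, triangle and diamond, black bars for the mean and SD of each group, and a grey band for the range of the median background probe over the 8 arrays. Reg3g, Reg3b and Reg1 lay between 12.4 and 13.6 in every tumour, and Reg2 reached 9.9 in tumour replicate 1 alone.

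Reg3g, the intestinal lectin directed at Gram-positive bacteria, was at 12.9, 12.5, 13.1 and 13.6 in adenocarcinoma replicates 1 to 4. In normal mucosa replicates 1 to 4 it was at 7.3, 6.0, 7.8 and 6.8. Every tumour thus lay at least 4.7 log2 units above the highest normal sample, and normal replicate 2 was below its array's median background probe. The difference was 6.05 ± 0.369 (SE, n = 4 each) on the log2 scale, with group means of 13.0 ± 0.457 and 6.98 ± 0.768 (SD). With 1 normal sample below background, the fold is only an approximate one.

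Reg3b, a lectin of the same subfamily also known as pancreatitis-associated protein, was at 12.4, 12.4, 12.8 and 13.5 in adenocarcinoma replicates 1 to 4. It was at 6.6, 6.7, 7.7 and 6.9 in normal mucosa. The groups were again 4.7 apart at their nearest, and all 4 normal samples were above the median background probe, by 0.2 to 1.4. The difference was 5.80 ± 0.3 (SE). Among tumours, both lectins were highest in replicate 4 and next highest in replicate 3, and among normal samples both were highest in replicate 3.

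Reg1, the founding member of the family, was at 13.1, 13.0, 12.7 and 12.5 in adenocarcinoma replicates 1 to 4. The normal samples were at 7.0, 7.6, 9.3 and 9.8. No tumour overlapped the normal range, the gap being 2.7, but the normal samples differed far more among themselves than the tumours did. The SD was 1.34 in normal mucosa, rank 13 of 21626 genes, and 0.275 in adenocarcinoma. The difference was 4.40 ± 0.558 (SE). In tumours the order of replicates was nearly the reverse of that of Reg3g, with Reg1 lowest in replicate 4 and Reg3g highest there.

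Some genes of intestinal epithelium varied between the normal samples in a like order. The brush border sugar hydrolase Sis was at 5.7, 5.5, 6.9 and 9.2 in normal replicates 1 to 4. The goblet cell lectin Zg16 was at 7.5, 8.7, 9.3 and 11.1, and the intestinal phosphatase Alpi at 9.3, 8.7, 10.8 and 11.9, with 12.3 in adenocarcinoma replicate 2. These 3 genes, of which Zg16 is from the antimicrobial and acinar lists, were chosen after their values were seen and were highest in replicate 4, as Reg1 was. Over the whole list of 17 measured enterocyte and Paneth cell markers, 7 were highest in normal replicate 4, 6 in replicate 3, and 1 each in replicates 1 and 2, the rest being tied. The mean log2 value of the list was 8.60, 8.51, 8.79 and 9.11 in normal replicates 1 to 4 and 7.62 to 8.38 in the tumours, and 1 marker, the Paneth cell defensin Defa24, lay at or below background on all 8 arrays. The part of these cells in the Reg1 values was not tested.

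Reg2, known from the pancreas, was at 9.9, 5.9, 6.3 and 6.4 in adenocarcinoma replicates 1 to 4. It was at 5.8, 5.9, 6.0 and 5.9 in normal mucosa, none of them above its array's background median. Only tumour replicate 1 stood well above its array's background median, by 3.8 log2 units, though still below the 90th percentile of background probes, and replicate 2 lay within the normal range. The group difference was 1.23 ± 0.759 (SE), and it was 0.30 without adenocarcinoma replicate 1. The tumour SD of 1.86 ranked 39 among 21626 genes.

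Some genes of the exocrine pancreas were also high in the same tumour. Chymotrypsinogen (Ctrb1) was at 11.7, 7.8, 8.8 and 8.2 in adenocarcinoma replicates 1 to 4 and at 7.9 to 8.2 in normal mucosa. Carboxypeptidase A1 (Cpa1) was at 9.8, 7.2, 8.0 and 7.6, and pancreatic amylase (Amy2a5) at 9.4, 5.7, 7.9 and 6.2, in the same order. Amy2a5 was also high in normal replicate 2 (9.0, against 6.3 to 6.8 in the other normal samples), where Reg2 was at 5.9, and its probe set is marked as open to cross-hybridisation. These 3 genes were chosen after their values were seen. Of 22 acinar markers, 11 were highest of the tumours in replicate 1, against 1, 1 and 3 in replicates 2, 3 and 4, and the rest were tied. The lead was 1 log2 unit or more in 4 of the 11, and in 0, 0 and 1 genes in replicates 2, 3 and 4. Other markers went the opposite way, with Cela1 (9.2, against 10.3 to 10.5) and Clps (9.9, against 10.2 to 10.6) lowest in tumour replicate 1. The list's mean log2 value was 8.01 in tumour replicate 1, 7.26 to 7.71 in the other tumours and 7.82 to 8.10 in normal mucosa, and 1 marker, Prss3, was at or below background on all 8 arrays. The acinar transcription factors Ptf1a and Rbpjl showed no such excess, at 7.1 and 7.6 in tumour replicate 1 against 6.9 to 7.1 and 7.5 to 7.7 in the other tumours. In the group comparison 1 acinar marker rose and 9 fell, led by colipase (Clps, -3.80 ± 0.145; limma adjusted p = 4.29e-07), which the normal mucosa held at 14.0 to 14.2. The part of pancreatic tissue in the Reg2 values was not tested.

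**Figure D2:**
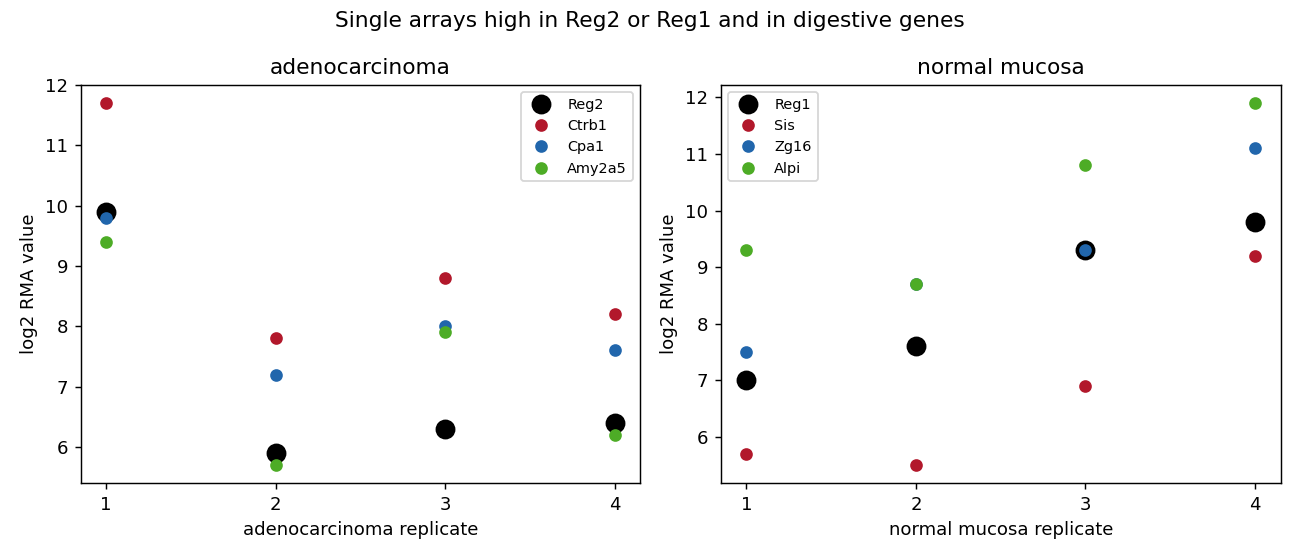
Log2 RMA values (vertical axis) by replicate (horizontal axis), for Reg2 and 3 acinar genes in adenocarcinoma (left) and for Reg1 and 3 intestinal genes in normal mucosa (right), as 1 point per array. Reg2, Ctrb1, Cpa1 and Amy2a5 were all highest in tumour replicate 1, and Reg1, Sis, Zg16 and Alpi in normal replicate 4 (in normal replicate 2 the points of Zg16 and Alpi coincide at 8.7).

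Reg3a, of the same subfamily as Reg3b and Reg3g, was at 7.3, 6.2, 6.6 and 6.7 in adenocarcinoma replicates 1 to 4. It was at 6.2, 5.9, 6.3 and 6.2 in normal mucosa, at or below background in all 4 samples. Tumour replicate 1 was the highest, as for Reg2, while replicate 2 fell within the normal range. The difference was 0.55 ± 0.209 (SE), and values this near to background do not give its size.

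Reg3d, related to the hamster islet neogenesis-associated protein, was at 6.1, 5.7, 5.7 and 6.1 in adenocarcinoma replicates 1 to 4. In normal mucosa it was at 6.0, 6.0, 6.0 and 5.9. All 8 values were at or below the median background probe of their array, so the difference of -0.08 ± 0.119 (SE) has no fold attached. Its probe set starts 5.0 kb from that of Reg3b.

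Reg4, the member known from human gastrointestinal tumours, was at 6.0, 6.1, 6.2 and 6.4 in adenocarcinoma replicates 1 to 4. It was at 6.5, 6.3, 6.5 and 6.8 in normal mucosa. The groups overlapped, at no more than 0.6 above the median background probe, and 2 tumours were at or below it. The difference was -0.35 ± 0.129 (SE), against a median of -0.10 over all genes. Values this close to background do not give its size.

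**Figure D3:**
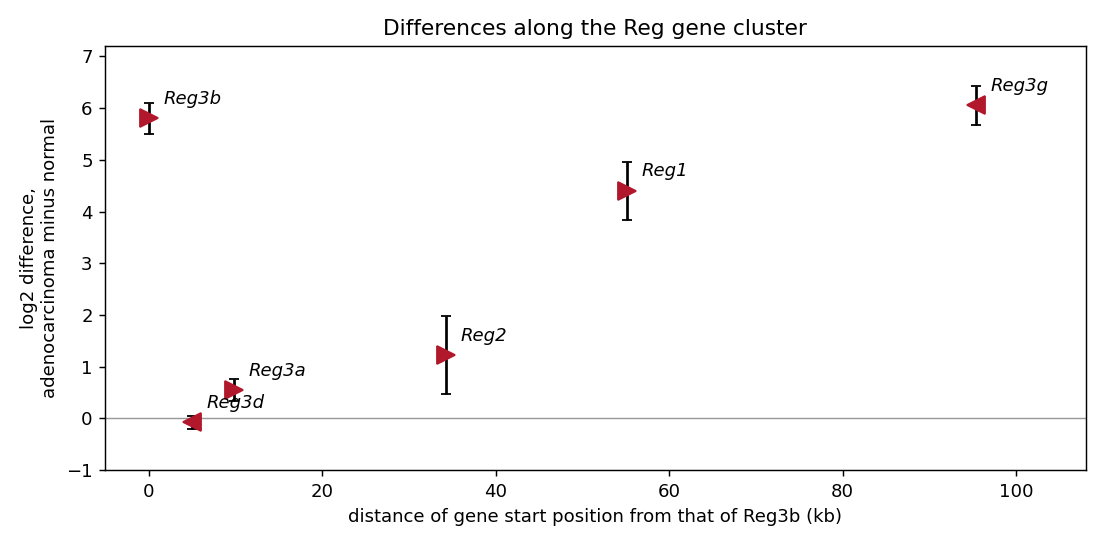
Log2 difference, adenocarcinoma minus normal mucosa (vertical axis, bars are the SE of the fit), of the 6 clustered Reg genes by the distance of their start position from that of Reg3b in kb (horizontal axis), with arrowheads for the strand. The highest values, 5.80 and 6.05, are at the ends of the cluster, Reg1 at 4.40 lies between, and Reg3d, 5.0 kb from Reg3b, is at -0.08.

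Position in the cluster did not order the differences. Reg3b and Reg3g, at opposite ends and on opposite strands, had nearly the same one, whereas Reg3d and Reg3a, within 9.8 kb of Reg3b, were near background. The nearest gene of the table outside the cluster is labelled Eif4a3. Its probe set starts 155.0 kb before that of Reg3b and rose by 0.83 ± 0.178 (limma adjusted p = 0.00695). The probe set is marked as open to cross-hybridisation, so its signal need not come from this position. Beyond it, the synaptic gene Lrrtm1 was at -0.20 and the catenin Ctnna2 at -0.28, neither of them called (adjusted p = 0.15 and 0.0979).

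Likeness of profile was measured as the root mean square difference over the 8 arrays, after each gene was centred on its mean in normal mucosa. The measure depends mostly on the size of the difference between the groups, on which the family was chosen. It does not show that genes vary together within a group. The gene most like Reg3g was Reg3b and the gene most like Reg3b was Reg3g, at 0.41. Next for both came the metalloproteinase inhibitor Timp1, at 0.84 from Reg3g and 0.67 from Reg3b. Serpina3n, an acute-phase protease inhibitor, was at 0.98 from Reg3g, close to the Y-linked Eif2s3y at 0.997. The matrix proteoglycan Lum was at 0.81 from Reg3b. By size of rise among all genes, Serpina3n, Timp1, Eif2s3y and Lum ranked 3, 4, 5 and 6, directly after Reg3g and Reg3b. The genes nearest to Reg1 were the surface enzyme Cd38 (0.72), Ccdc80 (0.77), the iron carrier transferrin (Trf, 0.81) and Olfml3 (0.83). Among the genes nearest to Reg4 were Apof, Amtn and Dpf3, at 0.06 to 0.07. The 8 values of Reg4 spanned only 6.0 to 6.8 in steps of 0.1, so these matches are among nearly flat profiles.

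Genes tied to the control of the family, a list of 29 cytokines, receptors and signalling genes, went both ways. Of these, 8 rose, 6 fell and 15 were not called, with a median of 0.15 against -0.10 over all genes. Calls in either direction were 14 of 29, beside 41.8% of all genes. The oncostatin M receptor Osmr, which signals through STAT3, was at 10.8, 10.8, 11.4 and 10.6 in adenocarcinoma replicates 1 to 4 and at 7.0 to 8.0 in normal mucosa, a rise of 3.53 ± 0.236 (SE; limma adjusted p = 1.12e-05). The inflammatory cytokine Il1b rose (2.75 ± 0.583, adjusted p = 0.00643) but differed between tumours. It was at 9.0, 9.1, 11.3 and 11.7 in adenocarcinoma replicates 1 to 4 and at 7.4 to 7.6 in normal mucosa. Tnf (1.93 ± 0.29, adjusted p = 0.00112) and Lif of the interleukin-6 family (1.10 ± 0.275, adjusted p = 0.0136) also rose. Socs3, the feedback inhibitor induced by STAT3, was at 10.5, 10.5, 11.3 and 10.8 in adenocarcinoma and at 9.4 to 9.8 in normal mucosa, a rise of 1.20 ± 0.182 (adjusted p = 0.00115).

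Other inducers differed between tumours, as Il1b did, or did not pass. Oncostatin M itself (Osm) was at 7.1, 7.4, 8.9 and 8.7 in adenocarcinoma replicates 1 to 4 and at 7.0 to 7.2 in normal mucosa. It was not called (limma adjusted p = 0.0877). Il6 was at 5.4, 5.9, 9.9 and 9.8 in adenocarcinoma replicates 1 to 4 and at 4.4 to 5.1, below background, in normal mucosa. It was above background in tumour replicates 3 and 4 alone, and Reg3g was at 12.9, 12.5, 13.1 and 13.6 in the same order. The part of Il6 in the Reg3g values was not tested. Il6 passed limma (adjusted p = 0.0372), with a difference whose size is not measured because it rests on values below background, but the call was lost in 9 of 14 alternatives (adjusted p of 0.0105 to 0.0906 over all 14), among them without tumour replicate 3 or 4 or any single normal sample. Stat3 passed with a small rise (0.33 ± 0.109; adjusted p = 0.0401) that was lost in 9 of 15 alternatives (0.0346 to 0.145), among them the same 6 arrays left out in turn. Il22, whose probe set is marked as open to cross-hybridisation, was at 6.7 to 6.9 in tumours and 6.9 to 7.3 in normal mucosa (-0.20 ± 0.112; adjusted p = 0.171), and after median centring it was called lower (-0.33; adjusted p = 0.0268). Its receptor subunit Il22ra1 was at 0.65 ± 0.4 (adjusted p = 0.209), highest in tumour replicate 4 at 10.7. Il17a (-0.13; adjusted p = 0.586) and Myd88 (0.15; adjusted p = 0.373) were not called. The values of Il22 and Il17a lay above the median background probe but below the 90th percentile of background probes (9.86 to 10.4). At such low values the lack of a call does not show that these 2 cytokines were unchanged.

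Most of the 6 falls were in receptors. Those of interleukin-11 (Il11ra1, -1.33 ± 0.123; limma adjusted p = 7.34e-05) and of leukaemia inhibitory factor (Lifr, -1.30 ± 0.137; 0.000153) and the interleukin-6 receptor (Il6ra, -0.70 ± 0.116; 0.0018) fell. Smaller falls were called for the soluble interleukin-22 receptor Il22ra2 (-0.30; adjusted p = 0.0417) and for the cytokine Ifng (-0.35; adjusted p = 0.0278). The gastrin receptor Cckbr, which in rodents mediates the induction of Reg1 by gastrin, fell by 1.33 ± 0.106 (3.03e-05), while gastrin itself (Gast) was at 7.5, 10.2, 7.9 and 8.1 in the tumours and 8.0 to 8.2 in normal mucosa (0.33 ± 0.498; adjusted p = 0.611). Reg1 was at 13.0 in tumour replicate 2, where Gast was high, and at 12.5 to 13.1 in the others, and the part of gastrin in the Reg1 values was not tested.

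**Figure D4:**
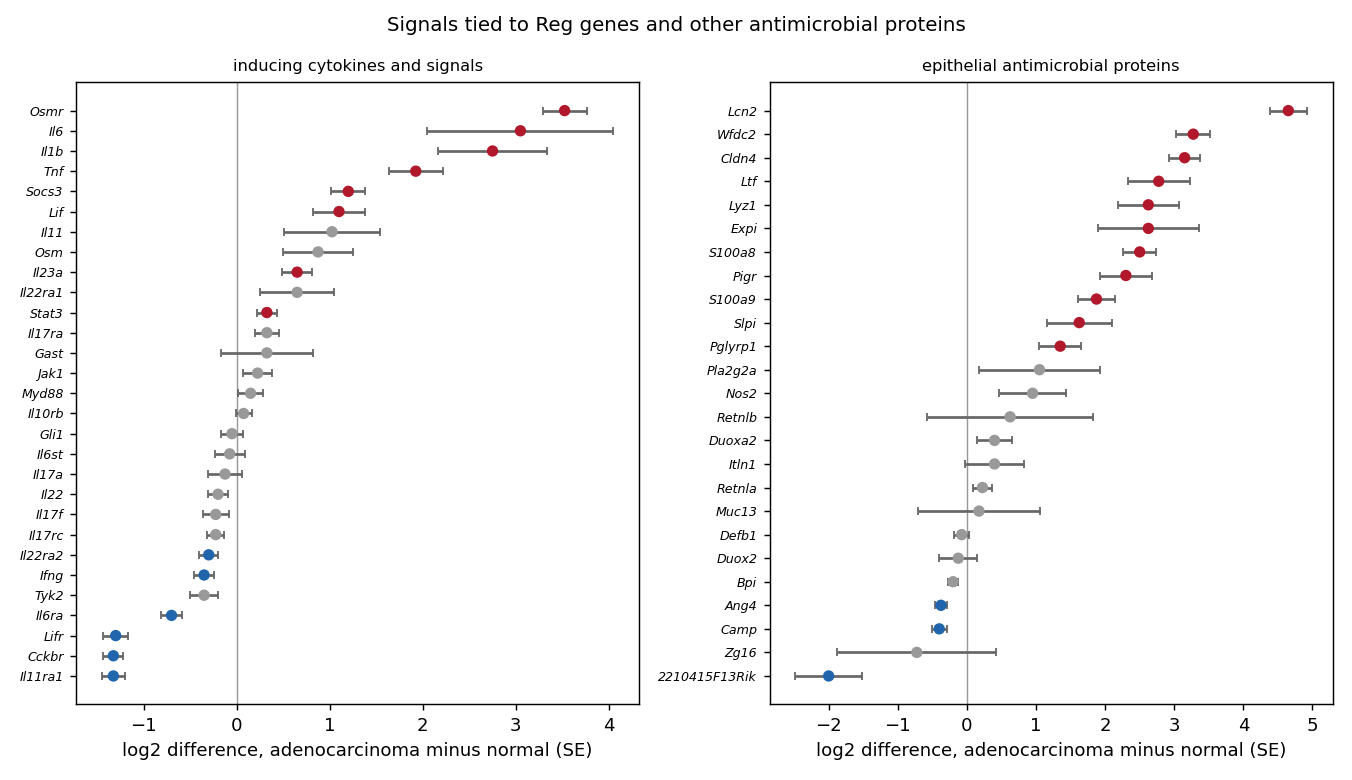
Log2 difference, adenocarcinoma minus normal mucosa (horizontal axis, bars are the SE of the fit), of 29 genes tied to the control of Reg genes (left) and of 25 epithelial antimicrobial and barrier genes (right), with red and blue for genes called higher and lower by limma and grey for the rest. Osmr and Lcn2 lead the lists at 3.53 and 4.65, and Il22 and Il17a are grey.

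The proposed receptor Extl3 was at 10.1 to 10.6 in tumours and 9.9 to 10.4 in normal mucosa (0.23 ± 0.14; limma adjusted p = 0.213). Of the 7 genes of its list, which adds other heparan sulfate polymerases and the receptors Egfr and Gpr37, 3 rose and 2 fell, beside 18.2% and 23.6% of all genes. The polymerases Ext1 (1.43 ± 0.125; adjusted p = 5.31e-05) and Ext2 (0.88 ± 0.0955; adjusted p = 0.000188) rose. Extl2 also rose (0.53; adjusted p = 0.0246), a call lost in 5 of 15 alternatives (0.0167 to 0.0701), including without tumour replicate 2 or normal replicate 1, 3 or 4. Gpr37 (-0.50; adjusted p = 0.00527) and Extl1 (-0.30; adjusted p = 0.026) fell. Egfr, through which human REG4 has been reported to signal, was at 0.38 ± 0.17 (adjusted p = 0.101) and was called only without adenocarcinoma replicate 3 (0.48; adjusted p = 0.0467).

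Other defence proteins of epithelia and leukocytes changed in both directions. Of 25 antimicrobial and barrier genes, 11 rose, 3 fell and 11 were not called, with a median of 0.95, beside 18.2% of all genes called higher and 23.6% lower. The iron-sequestering lipocalin Lcn2 was at 12.1, 11.4, 12.7 and 12.5 in adenocarcinoma replicates 1 to 4 and at 7.2 to 7.9 in normal mucosa, a rise of 4.65 ± 0.269 (limma adjusted p = 4.87e-06). Wfdc2, an epithelial protease inhibitor (3.28 ± 0.247; 2.2e-05), and Cldn4, a tight junction protein and not itself antimicrobial (3.15 ± 0.229; 1.85e-05), also rose. The largest fall was in 2210415F13Rik, now named Lypd8, whose product keeps flagellated bacteria from the colonic epithelium (-2.0 ± 0.481; adjusted p = 0.0114). The intestinal goblet cell protein Retnlb was at 5.8, 6.1, 5.7 and 11.6 in adenocarcinoma replicates 1 to 4 and at 6.2 to 7.7 in normal mucosa. It was not called (adjusted p = 0.687). Among the tumours, Zg16 (12.0, against 6.9 to 7.6 in the others) and the antibacterial phospholipase Pla2g2a (11.5, against 6.9 to 7.9) were likewise high in replicate 4 alone. In normal mucosa Pla2g2a was at 7.2 to 7.4, but Zg16 was at 7.5 to 11.1, highest in normal replicate 4. Of the 25 genes, 11 were highest in tumour replicate 4, the tumour with the most Reg3g and Reg3b, against 2, 2 and 5 in replicates 1, 2 and 3. The lead was 1 log2 unit or more in 5 of the 11, and in 1, 0 and 0 genes in replicates 1, 2 and 3. Among normal samples, 9 were highest in replicate 4, against 4, 2 and 5 in replicates 1, 2 and 3, while Reg3g and Reg3b were highest in replicate 3. The single-tumour values of Retnlb, Zg16 and Pla2g2a were picked after they were seen, and their relation to the Reg values was not tested.

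Markers of other cell types that the samples could hold were counted in the same fit, which called 18.2% of all genes higher and 23.6% lower. Of 15 gastric endocrine markers, 6 fell and 1 rose, led by ghrelin (Ghrl, -4.33 ± 0.334; limma adjusted p = 2.48e-05), somatostatin (Sst, -3.20 ± 0.293; 6.75e-05) and chromogranin A (Chga, -2.45 ± 0.588; 0.0112). The list's mean log2 value was 7.43 to 8.35 in tumours and 8.31 to 8.76 in normal mucosa, with none of the 15 at background on all 8 arrays. Of 17 enterocyte and Paneth cell markers, 4 rose and 7 fell. The matrix metalloproteinase Mmp7, which mouse Paneth cells also make, rose by 4.53 ± 0.251 (3.68e-06), while Apoa1 (-5.25 ± 0.191; 3.44e-07) and Fabp2 (-3.78 ± 0.275; 1.85e-05), lipid carriers of enterocytes, fell. Of 12 neutrophil and macrophage markers, 10 rose and 1 fell, led by lysozyme (Lyz2, 4.33 ± 0.197; 1.28e-06), C1qb (3.80 ± 0.153; 5.83e-07) and Emr1 (3.18 ± 0.326; 0.00013). The list's mean was 9.19 to 9.72 in tumours and 7.37 to 7.49 in normal mucosa. The part of any of these cells in the Reg differences was not tested.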

How the data were processed

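The authors deposited log2 expression values made with RMA, per the submitters' processing notes, and the values carry 1 decimal. No source used here names the settings, the array type or the build. Both deposited tables hold the same 284448 values, with 0 that differ. Of 28350 gene probe sets, 24975 carry 1 symbol, and for each of 21626 genes only the brightest probe set (by mean of the 8 arrays) was kept, with no filter. The 7 Reg probe sets hold 25 to 28 probes each and are marked unique (cross-hybridisation type 1) in the deposited table. Groups and replicate numbers come from the titles.

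The groups were compared over all 21626 genes in limma 3.58.1 under R 4.3.3 (lmFit, then eBayes; tests were two-sided), with Benjamini-Hochberg adjustment and a threshold of 0.05. Unless marked SD, ± is the SE of that fit. Precision is limited by the 4 arrays a group. The code was tested on simulated data. A value is at background if at or below its array's median of 45 antigenomic control probe sets.

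Members, gene lists, tests and alternatives were chosen with earlier results of these data known. Named genes are all members, per list the 3 called genes of largest difference without overlap, 9 regulators and receptors, 4 genes nearest in profile to Reg3g, Reg3b, Reg1 and Reg4, and Xist and Eif2s3y. Of these, 1 gene is not reported here. Other genes were named after their values were seen. Lists were matched by symbol or accession, 1 gene (Mptx2) was not measured here, and Cblif, the current name of Gif, was counted once with it. Promoters were aligned with Biopython 1.88 (global, match 2, mismatch -1, gap opening -4, extension -0.5). Figures used Python 3.11.15 and matplotlib 3.10.9. Alternatives are described with their effects in the closing section.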

Additional observations from a re-analysis of the deposited data

Results flagged for a closer look

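Single arrays stood far from the other 3 of their group, by Dixon's test at the 95% level, in 7 of 106 groups of 4 examined over 53 genes. Chance gives about 1 in 20 for continuous values, but these values carry 1 decimal. Among Reg genes these were Reg2 at 9.9 in adenocarcinoma replicate 1 and Reg3d at 5.9 in normal replicate 4, where the other 3 normal samples were at 6.0, a step of the last decimal. The others were Ext2 at 10.7 and Il22 at 6.7, both in adenocarcinoma replicate 1, Mmp7 at 7.3 in normal replicate 2, Fabp2 at 11.2 in normal replicate 4 and Atp4b at 13.7 in normal replicate 3. In Ext2, Il22, Mmp7 and Atp4b, as in Reg3d, the other 3 arrays of the group were tied, so rounding may have made these flags.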

How the results depend on the processing

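Over 15 refits, the differences of Reg3g, Reg3b and Reg1 spanned 5.70 to 6.33, 5.47 to 6.04 and 3.93 to 4.86, which, as the members were chosen on this contrast, is a description only. The refits were median centring, cyclic loess, an offset of 32 units before log2, a filter that drops the dimmest 30% of genes, averaging of probe sets, eBayes with trend and robust, the replicate number as a block, and each of the 8 arrays left out. Reg3a and Reg4 did not pass the threshold in the main fit. They passed it in 3 and 5 of 14 refits (Reg2, Reg3a, Reg3d and Reg4 are lost with the dimmest genes). For the same reason nothing is read from these counts. Reg3d changed sign after cyclic loess (0.11). With values raised to the 90th percentile of background probes, Reg3g was at 2.75, Reg3b at 2.50, Reg1 at 2.55, and Reg2, Reg3a, Reg3d and Reg4 all at -0.24, the difference between the floors. Over all genes, 3942 were higher and 5099 lower, and the lower count was 9151 after median centring, 3239 after cyclic loess, 3180 without the dimmest genes and 2975 to 5456 with an array left out (2976, 3004 and 2975 without normal replicate 1, 3 or 4, and 3384 without adenocarcinoma replicate 2). Rises were 43.6% of calls, 25.4% after median centring, which moves the median of all genes from -0.10 to -0.23, and 54.8% after cyclic loess. The 2 falls in the list with Extl3 became 1 after cyclic loess and without the dimmest genes, and 1 to 2 with an array left out. Of 46 named genes outside the family, 37 kept their side of the threshold in each refit, 7 lost a call in at least 1 and 2 gained one. Gast, Il17a and Il22 changed sign in some refits while not called. Same-numbered arrays are tied in the titles only by that number, and whether they share anything else is not known. Correlations of their deviations from the group means were -0.18 to 0.16. Tumour replicates 2 and 3 correlated best with the normal array of their own number, and replicates 1 and 4 did not. The replicate block gave 3578 higher and 4519 lower and ended the limma calls of Il6 (adjusted p = 0.073) and Stat3 (adjusted p = 0.0783).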
